A study of Homo sapiens with 23 samples.

Results

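In HCT116 cells, 19465 of the 121730 chromatin regions bound by SIRT1 phosphorylated at T530 (pSIRT1), or 15.99%, held no mapped replication start site. They were defined by overlap: a pSIRT1 region on chromosomes 1 to 22 or X was selected where it shared not even 1 bp with any region of the 4 HCT116 nascent-strand lists. Nascent strands are short, newly made DNA pieces that keep an RNA primer and so withstand an exonuclease, and their peaks mark where replication started. The regions without a start site were compared with the 31606 pSIRT1 regions (26.0%) that overlapped all 4 lists. No nascent-strand list of untreated wild-type cells was used here, so a start site of such cells may still lie in a selected region.

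HCT116 is an established colon carcinoma line and K562 an established chronic myelogenous leukemia line, and each group was 1 library without replicates. The 4 HCT116 nascent-strand lists came from a clone depleted of SIRT1 (depleted list), from depleted clones that carry wild-type SIRT1 (wild-type rescue) or the mutant T530A (T530A rescue), and from wild-type cells held in 200 nM aphidicolin, which blocks DNA polymerases, over 24 h and then freed of it over another 24 h (aphidicolin list). The ChIP lists for pSIRT1, for MCM2 phosphorylated at S139 (pMCM2) and for acetylated H4 lysine 16 (H4K16ac) came from unsynchronised, untreated wild-type HCT116 cells. From K562 cells there were nascent-strand lists of early, middle and late S phase, pSIRT1 and pMCM2 lists of G1, early, middle and late S and G2, the ChIP fractions made by elutriation, and 1 pSIRT1 list of unfractionated cells. So the selection set binding in wild-type cells against start sites in clones or treated cells.

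SIRT1 is a deacetylase that uses NAD and removes, among others, the acetyl group of H4 lysine 16, a mark of open chromatin. MCM2 is a subunit of the MCM helicase, which is loaded on DNA before S phase at many more places than are used as origins, and which kinases phosphorylate when origins are activated. Origins that are licensed and stay unused in an ordinary S phase are called dormant. Start sites mapped in a population are those used often enough to give a peak, so a region without a peak is not shown to be free of initiation.

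The regions without a start site were the narrow and weakly covered end of a graded series. Their median width was 1200 bp, and it was 1400, 1600, 1800 and 2600 bp for regions in 1, 2, 3 and all 4 lists. Of the regions without a start site, 90% lay between 400 and 3000 bp wide, and the widest spanned 17600 bp. The deposited read number per region, not scaled between libraries, had a median of 34 without a start site and of 43, 48, 57 and 86 in 1, 2, 3 and 4 lists. Per kb of region the medians over all widths were close to each other, at 33.0 reads without a start site and 35.0 in all 4 lists. Narrow regions held more reads per kb, so these medians mix widths. The regions without a start site covered 25.4 Mb, which was 9.09% of the length of all pSIRT1 regions, and held 8.24% of their reads. The regions in all 4 lists covered 111 Mb and held 42.3% of the reads. Width and reads describe the choice, since a wide region meets a start site more easily, and neither was tested.

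**Figure D1:**
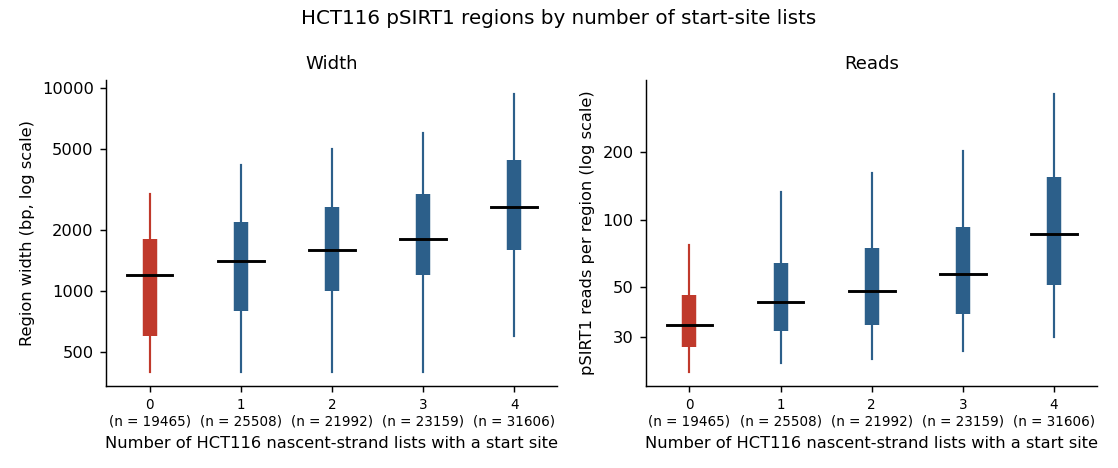
Width in bp (left) and deposited reads (right) of HCT116 pSIRT1 regions, on log axes, by the number of nascent-strand lists they overlapped; black bars are medians, boxes run over the quartiles and thin lines from the 5th to the 95th percentile. Median width goes from 1200 bp with 0 lists to 2600 bp with 4 lists, and median reads from 34 to 86.

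Reads also differed within classes of width. Among regions of 400 to 600 bp, those without a start site had a median of 25 reads and those in all 4 lists 29. Among regions wider than 2400 bp the medians were 70 and 148 reads. The narrowest regions, of 200 bp, were without a start site in 39.3% of cases (644 regions), and those wider than 2400 bp in 4.95% (1812 regions).

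Most regions without a start site lay a few kb from one. The median gap to the nearest start site of any of the 4 lists was 3400 bp, with quartiles at 1400 and 8000 bp. A start site adjoined 177 of them with no shared base, 3397 (17.5%) lay within 1 kb of one, and 3820 (19.6%) more than 10 kb away. The gap reached 100 kb or more in 196 regions, of which 175 were on chromosome X, and its largest value was 1124400 bp. The nearest start site was of the depleted list for 7582 regions (39.0%), of the T530A rescue for 4218, of the aphidicolin list for 4163 and of the wild-type rescue for 3502. Where lists were equally near, the region was counted for the first in the order depleted, wild-type rescue, T530A rescue, aphidicolin. So the order of the close values 4218 and 4163 may rest on ties. The depleted, T530A rescue, aphidicolin and wild-type rescue lists held 109990, 103974, 96993 and 74479 peaks, the same order as that of the numbers as counted.

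The border of the selection was not sharp. The 389 selected regions at most 200 bp from a start site had median values of 1400 bp and 38 reads, and 82.0% of them overlapped H4K16ac. The 615 regions just on the other side, which shared at most 200 bp with 1 list and reached beyond it, had medians of 1000 bp and 32 reads, and 75.9% overlapped H4K16ac. The pMCM2 shares were 33.9% and 38.7%.

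The selection leaned most on the depleted list. Of all pSIRT1 regions, 15780 met a start site in the depleted list and in no other, against 3710 for the T530A rescue, 3383 for the aphidicolin list and 2635 for the wild-type rescue. Without the depleted list the number of regions without a start site was 35245, in place of 19465. Without each of the other lists in turn it was between 22100 and 23175.

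Phosphorylated MCM2 and the histone mark were both seen less often at regions without a start site. Of these regions, 6821 (35.0%, 95% interval 34.4 to 35.7%) overlapped a pMCM2 peak. The share was 69.3% (68.8 to 69.8%) of regions in all 4 lists and 53.1% of all pSIRT1 regions. An H4K16ac peak overlapped 14359 of the regions without a start site (73.8%, 73.1 to 74.4%), 94.7% of the regions in all 4 lists and 86.4% of all pSIRT1 regions. The difference was 34.2 percentage points for pMCM2 and 20.9 for H4K16ac. Intervals here are exact binomial ones and cover counting only, since neighbouring regions are not independent and there was 1 library a group, so no test between groups was made. The shares followed the number of lists: pMCM2 overlapped 45.7, 50.2 and 57.1% of regions in 1, 2 and 3 lists, and H4K16ac 83.4, 86.6 and 89.0%.

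The K562 lists, which had no part in the selection, also had lower shares at regions without a start site. A K562 start site of at least 1 S phase fraction overlapped 3299 of the regions without an HCT116 start site (16.9%), 50.3% of those in all 4 lists and 33.4% of all pSIRT1 regions. The unfractionated K562 pSIRT1 list overlapped 4811 of them (24.7%), against 61.0% and 43.8%. A K562 pSIRT1 peak of any phase overlapped 9644 (49.5%), against 87.0% and 71.5%. A K562 pMCM2 peak of any phase overlapped 6449 (33.1%), against 76.4% and 56.4%. The share in all 4 lists divided by the share without a start site was 1.28 for H4K16ac, 1.98 for pMCM2, 2.47 for unfractionated K562 pSIRT1 and 2.97 for K562 start sites.

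**Figure D2:**
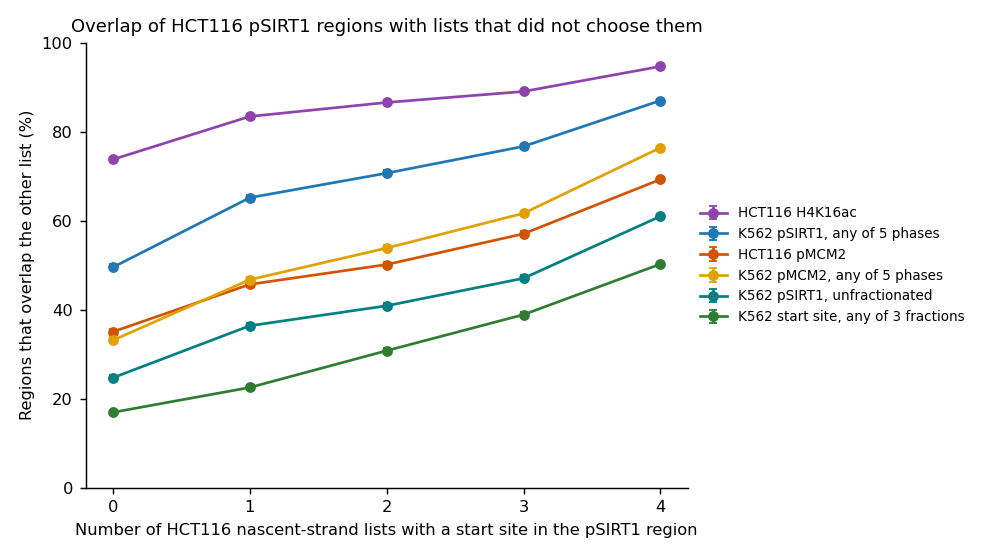
Percent of HCT116 pSIRT1 regions that overlap each other list by at least 1 bp, by the number of nascent-strand lists (0 to 4); bars on the points are exact 95% binomial intervals and can be smaller than the points. In each of the lists drawn, the regions with 0 lists have the lowest share, for pMCM2 35.0% against 69.3% with 4 lists.

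Wider regions meet any list more often, so the shares were also read within width classes. In all 5 classes and for all 6 of these lists and list groups, the share was lower in regions without a start site. The H4K16ac difference was 30.9 points at 200 bp and 6.46 points above 2400 bp, where 91.6% of the regions without a start site and 98.0% of those in all 4 lists overlapped the mark. The pMCM2 difference lay between 19.2 and 33.2 points. A K562 start site was met by 19.2% of the 400 to 600 bp regions without an HCT116 start site and by 14.8% of those above 2400 bp, so here the share did not grow with width. In regions of all 4 lists the matching shares were 60.6 and 44.2%. Only 118 regions of all 4 lists were 200 bp wide.

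**Figure D3:**
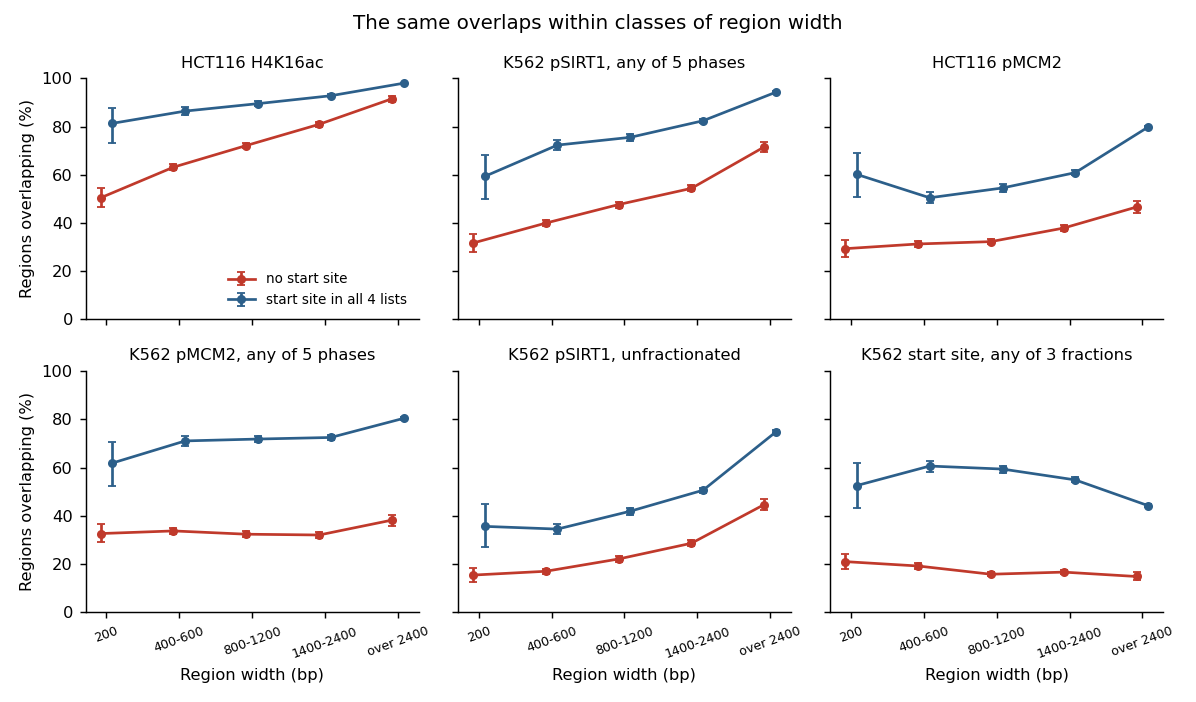
Percent of regions that overlap other lists within 5 width classes, for regions without a start site and regions in all 4 lists, with exact 95% binomial intervals. The regions without a start site are lower in every class, and the H4K16ac values approach each other from 30.9 points apart at 200 bp to 6.46 points above 2400 bp.

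The size of these differences depended on how an overlap was counted, and the direction did not. When only the middle 200 bp of each region were used, the pMCM2 difference was 15.3 points (25.7 against 41.0%) and the unfractionated K562 pSIRT1 difference 22.4 points. With the higher-read 50% of pSIRT1 regions alone, 3679 regions were without a start site and the H4K16ac difference was 4.05 points (93.7 against 97.7%). With the higher-scoring 50% of H4K16ac peaks it was 34.6 points. With the higher-read 50% of each nascent-strand list the K562 start site difference was 21.4 points and 38894 regions counted as without a start site.

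H4K16ac without pMCM2 was the most frequent combination at regions without a start site. It was found at 8895 of them (45.7%), both marks at 5464 (28.1%), neither at 3749 (19.3%) and pMCM2 alone at 1357 (6.97%). In all 4 lists both marks were found at 66.8% of regions and neither at 2.82%. Over all pSIRT1 regions, H4K16ac alone was found at 38.0%, both marks at 48.4%, neither at 8.88% and pMCM2 alone at 4.69%. Regions with both marks had a median of 40 reads and 1400 bp, and those with neither 29 reads and 800 bp. Among regions without a start site, those with neither mark also met K562 pSIRT1 of any phase least often, in 23.4% against 66.1% with both marks. The same was seen in all 4 lists (48.9 against 92.4%) and over all pSIRT1 regions (31.9 against 84.7%). A K562 start site was met by 18.5% of regions without a start site that had neither mark, close to the 17.6% of those with both marks. In all 4 lists these shares were 64.2 and 49.4%, and over all pSIRT1 regions 32.8 and 35.7%.

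A set of 1807 regions without a start site (9.28%) overlapped none of the other 16 lists, so only the HCT116 pSIRT1 library held a peak there. The 1807 regions had medians of 800 bp and 27 reads. Of the regions in all 4 lists, 106 (0.335%) met none of these 16, and of all pSIRT1 regions 3658 (3.01%). At the other end, 298 regions without a start site (1.53%) overlapped pMCM2, H4K16ac, a K562 start site and unfractionated K562 pSIRT1 together, against 6843 (21.7%) in all 4 lists and 9.57% of all pSIRT1 regions.

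The peaks that met these regions had lower values than those at regions in all 4 lists. The pMCM2 peaks at regions without a start site had a median of 51 reads, against 47 over the whole pMCM2 list and 102 at regions in all 4 lists. For H4K16ac the medians of the authors' fold enrichment were 3.63, 3.31 and 4.90 in the same order. K562 early S start sites at these regions had a median of 62 reads, against 60 over their list and 101 at regions in all 4 lists. Not all lists lay above their own median: 65.3% of the H4K16ac values at regions without a start site were above the median of their list, but 41.6% of those of K562 middle S pSIRT1 and 43.2% of those of K562 G2 pMCM2. Where several peaks met a region, the highest value was taken, which favours wide regions.

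In each K562 cell cycle fraction, regions without a start site met pSIRT1 less often than regions in all 4 lists did. The late S list overlapped 40.6% of them, G1 20.1%, middle S 6.32%, G2 6.31% and early S 3.38%. In all 4 lists the shares were 81.8, 56.8, 32.1, 29.2 and 21.8%, and over all pSIRT1 regions 64.5, 38.9, 19.4, 17.7 and 11.6%, in the same order of lists. The lists differ in length, with 120213 peaks in late S and 25542 in middle S, and the middle S and G2 lists carry decimal scores in place of reads, so phases were not compared with each other. All 5 phases were met by 134 regions without a start site (0.688%) and by 12.4% of those in all 4 lists. Over all pSIRT1 regions the share was 5.85%. K562 pMCM2 was met by 18.3% of regions without a start site in G2 and by 5.01 to 8.65% in the other phases. In all 4 lists these shares were 53.7% and 22.9 to 34.0%, and over all pSIRT1 regions 36.1% and 13.3 to 19.9%. The G2 list was also the longest pMCM2 list of K562, with 82751 peaks against 24359 to 43553.

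K562 start sites at regions without an HCT116 start site were mostly seen in 1 fraction. Of the 3299 regions, 2181 met a start site of 1 fraction, 721 of 2 and 397 of all 3. In all 4 lists, 6538 of 15884 met all 3. Regions with all 3 fractions were 2.04% of those without a start site, 20.7% of those in all 4 lists and 9.87% of all pSIRT1 regions. K562 pMCM2 of any phase overlapped 29.4% of the regions with no K562 start site and 47.2, 56.0 and 65.0% of those with 1, 2 and 3 fractions. HCT116 pMCM2 went from 34.4 to 40.6% over the same steps and HCT116 H4K16ac from 74.6 to 68.5%. In regions of all 4 lists, K562 pMCM2 of any phase went from 65.8 to 92.3% over these steps. There HCT116 pMCM2 went from 69.5 to 70.0% and HCT116 H4K16ac from 96.3 to 93.2%. The 397 regions without an HCT116 start site that met all 3 fractions thus had start sites in 3 K562 libraries and in none of the 4 HCT116 libraries.

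Distance from the nearest HCT116 start site went with H4K16ac and hardly with pMCM2. On the autosomes, H4K16ac overlapped 79.5% of the regions without a start site up to 1 kb away, 77.9% at 1 to 3 kb, 72.5% at 3 to 10 kb, 67.7% at 10 to 30 kb and 57.6% beyond 30 kb. For pMCM2 the shares were 35.4, 35.7, 34.3, 34.4 and 28.3%. Unfractionated K562 pSIRT1 went from 28.1 to 13.7%, and K562 start sites stayed between 15.1 and 18.5% with no order. The median width was 1200 bp in both near classes and 1000 bp in the 3 far ones.

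Regions without a start site lay farther from other pSIRT1 regions, and more often next to each other, than pSIRT1 regions did in general. The gap to the nearest other pSIRT1 region had a median of 4800 bp, against 1400 bp for regions in all 4 lists and 2200 bp for all. At least 1 of the nearest neighbours on the same chromosome was also without a start site in 49.0% of cases, against 15.9% for regions in all 4 lists and 28.0% for all. The remaining 9934 regions without a start site (51.0%) stood singly between other pSIRT1 regions. The longest autosomal row was 13 regions at chr3:75731601-75866199, of which 8 met a K562 start site, 6 met H4K16ac and 1 met pMCM2. The next, 11 regions at chr9:130751201-130826199, met H4K16ac 11 times and K562 start sites 0 times.

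Chromosome X stood apart. On it, 705 of 1306 pSIRT1 regions (54.0%) were without a start site and 45 (3.45%) were in all 4 lists, against 15.6% and 26.2% on the autosomes. The nascent-strand lists were themselves sparse on X: it held 1.02% of the depleted list, 0.212% of the wild-type rescue, 0.340% of the T530A rescue and 0.237% of the aphidicolin list. It held 1.07% of pSIRT1, 1.77% of H4K16ac and 3.63% of pMCM2 peaks. Regions without a start site on X lay a median of 25600 bp from the nearest one, against 3200 bp on the autosomes. Their median reads were 33 and 34. pMCM2 overlapped 42.6% of them on X and 34.8% on the autosomes, and a K562 start site 22.4 and 16.7%. H4K16ac overlapped 62.3 and 74.2%. Over all pSIRT1 regions of X and of the autosomes, the shares were 49.9 and 53.1% for pMCM2, 33.6 and 33.4% for K562 start sites and 76.7 and 86.5% for H4K16ac, so H4K16ac was lower on X in all regions too. The longest row of all, 35 regions at chrX:81265401-95911399, lay on X, with pMCM2 at 14, H4K16ac at 3 and a K562 start site at 0. The median reads of the start sites on X were 75 in the depleted list, against 107 on the autosomes, and the part of this in the share was not tested. Without X, none of the 4 differences in share above moved by more than its interval.

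**Figure D4:**
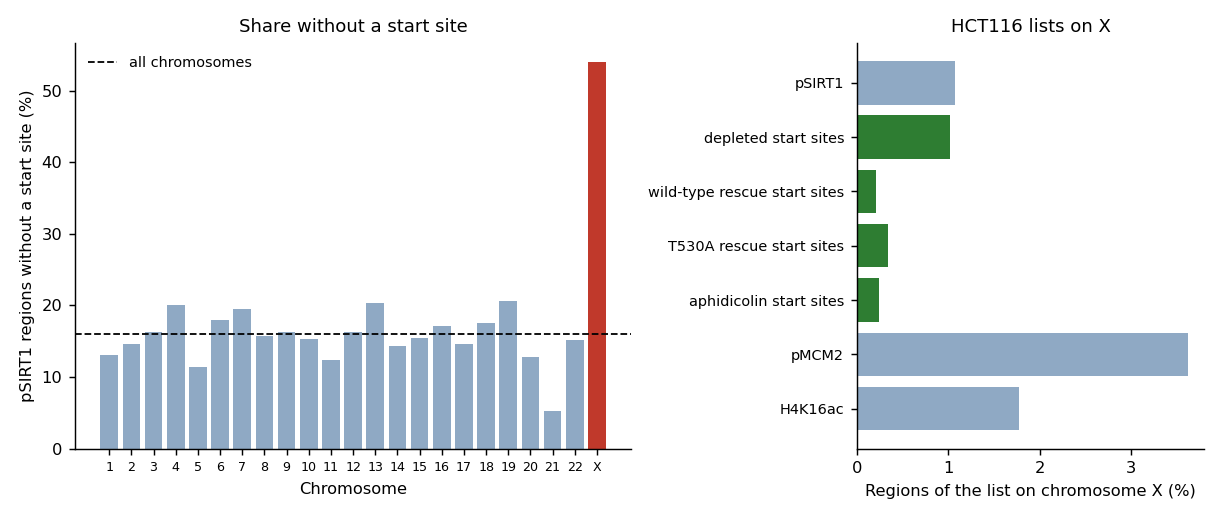
Percent of the HCT116 pSIRT1 regions of each chromosome that are without a start site, with the share over all chromosomes as a dashed line (left), and percent of the regions of each HCT116 list that lie on chromosome X (right). Chromosome X, at 54.0%, lies above all autosomes, and chromosome 21, at 5.29%, is the lowest.

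Among the autosomes, the share without a start site was highest on chromosomes 19 (20.7%) and 13 (20.4%) and lowest on 21 (5.29%) and 5 (11.4%). On chromosome 21 the wild-type and T530A rescue lists overlapped 81.7 and 83.9% of pSIRT1 regions, against 48.7 and 53.6% over all chromosomes. For the depleted and aphidicolin lists the shares were 74.2 and 39.1%, against 67.8 and 47.9%. The regions of chromosomes 19 and 13 differed in their marks. On chromosome 19, 85.5% of the regions without a start site met H4K16ac and 77.2% met K562 pSIRT1 of any phase. Of all its 6013 pSIRT1 regions, 91.0 and 88.0% did. On chromosome 13 the shares were 64.6 and 23.5%, against 81.2 and 46.5% of all its pSIRT1 regions. Over the 489 windows of 5 Mb with at least 50 pSIRT1 regions, the middle 50% of windows had shares without a start site between 12.4 and 22.7%. Windows near the start of chromosome 5 held the fewest: of 222 regions between 10 and 15 Mb, 0 were without a start site, and of 545 in the first 5 Mb, 3 were. In the window from 10 to 15 Mb the wild-type rescue list had 454 peaks and the T530A rescue 630, against 230 in the depleted and 228 in the aphidicolin list. The part of the rescue lists in the low shares of chromosomes 5 and 21 was not tested. The highest autosomal shares were 29 of 55 regions at 10 to 15 Mb of chromosome 21, 30 of 67 at 75 to 80 Mb of chromosome 3 and 32 of 72 at 20 to 25 Mb of chromosome 19.

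The 50 regions without a start site that had the most reads lay mostly within 2 Mb of long peak-free stretches. The longest stretch of each chromosome without a peak in any of the 21 lists, a definition made after these regions had been seen, had 9 of the top 10 and 29 of the top 50 within 2 Mb. Of the top 100, 31 lay there. Of all regions without a start site, 532 (2.73%) lay there, against 1.88% of those in all 4 lists and 2.16% of all pSIRT1 regions. Whether the reads and fold enrichments at these places measure binding was not tested, and they are given as deposited. The 5 regions with the most reads and the 5 widest are described next, with coordinates on hg19.

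The region with the most reads, at chr18:18510801-18520399, held 1674 reads over 9600 bp and began where the stretch ends, as a stretch ends at a peak by definition. Its nearest start site, of the T530A rescue, was 30600 bp away, and it overlapped an H4K16ac peak of 27.4-fold enrichment and no pMCM2 peak. The second, at chr6:58776201-58780199, held 1591 reads over 4000 bp, with H4K16ac at 45.9-fold. The third, chr10:42383201-42400799, was also the widest, with 17600 bp and 1510 reads, and lay 195800 bp from the nearest start site. The fourth, chr7:61967001-61971999, held 1478 reads and was the only one of these 5 that overlapped unfractionated K562 pSIRT1 (6676 reads) and K562 G1 pSIRT1 (2246 reads). The fifth, chr1:121482601-121485599, held 1441 reads over 3000 bp and lay 135800 bp from the nearest start site, with H4K16ac at 46.1-fold. None of the 5 overlapped HCT116 pMCM2 or a K562 start site, and all 5 overlapped K562 pSIRT1 in middle S and in G2.

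The other wide regions were chr21:11124801-11136599 with 697 reads over 11800 bp, chr3:75690601-75699599 with 568 reads over 9000 bp and chr19:27731601-27740399 with 1194 reads over 8800 bp. The chromosome 21 region overlapped pMCM2 (638 reads) and a very high K562 late S start site (11674 reads). The chromosome 3 region was not near the stretch and overlapped K562 start sites in all 3 fractions, with 455, 464 and 504 reads, 4200 bp from the nearest HCT116 start site.

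The high-read regions near the stretches met some of the other lists and not others. There were 18 without a start site, with at least 300 reads and within 2 Mb of a stretch. All 18 overlapped H4K16ac, K562 middle S pSIRT1 and K562 G2 pSIRT1. They overlapped K562 late S pSIRT1 in 6 cases, G1 in 5, unfractionated in 4 and early S in 3, and HCT116 pMCM2 in 7. Of the 60 regions in all 4 lists at the same places and read limit, 60 overlapped H4K16ac, 60 pMCM2, 60 late S, 59 unfractionated, 57 middle S and 49 G2 pSIRT1. Over all 95 such pSIRT1 regions, 95 overlapped H4K16ac, 91 middle S and 83 G2 pSIRT1. So H4K16ac, middle S and G2 pSIRT1 were frequent there whether or not a start site was mapped. The remaining lists were met less often by the 18. Of the 95, 82 overlapped pMCM2 (86.3%, against 38.9% of the 18) and 81 late S pSIRT1 (85.3%, against 33.3%). Unfractionated pSIRT1 was met by 77 of the 95, G1 by 76 and early S by 46. H4K16ac, middle S and G2 pSIRT1 were also frequent at high-read regions away from the stretches. Of the 3143 pSIRT1 regions elsewhere with at least 300 reads, 99.97% overlapped H4K16ac, 85.9% middle S and 79.7% G2 pSIRT1. The 2 K562 lists found at all 18 are those deposited with decimal scores in place of reads. The part of this difference in format was not tested. Without all regions within 2 Mb of a stretch, none of the 4 differences in share moved by more than its interval.

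**Figure D5:**
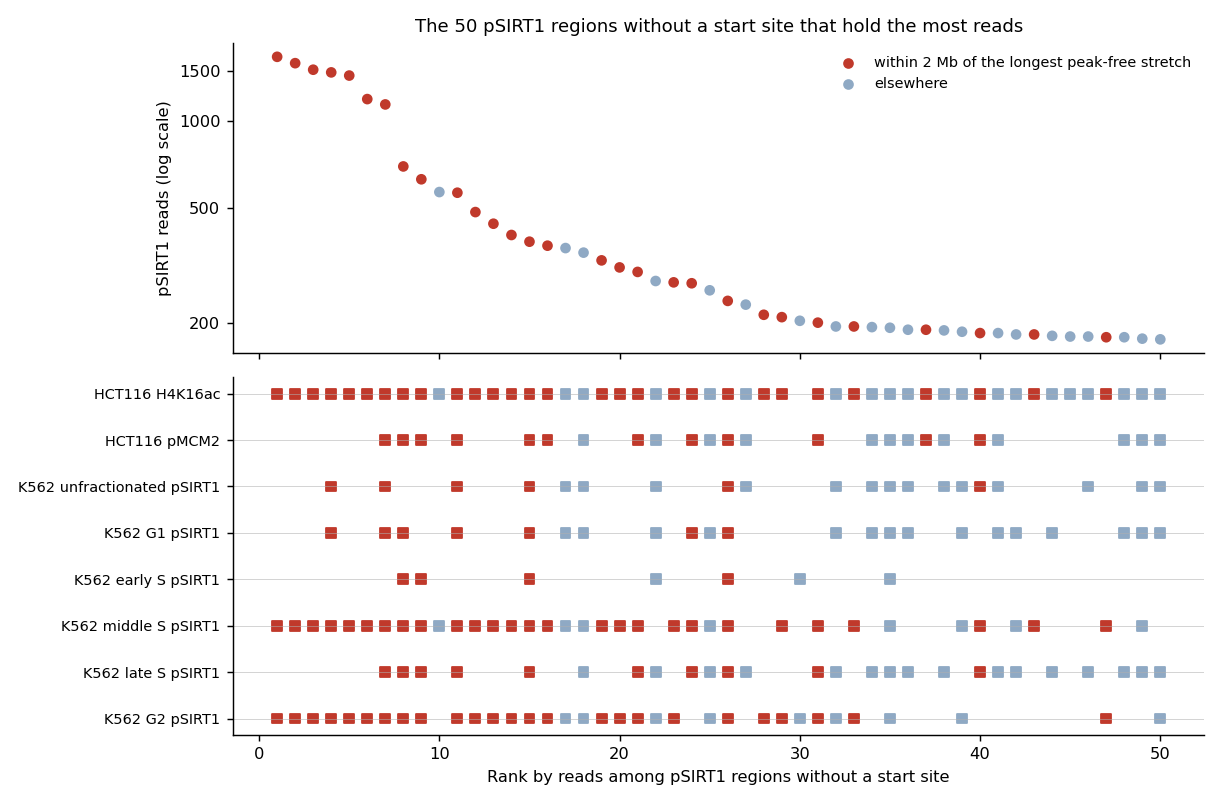
The 50 regions without a start site with the most reads, by rank: deposited pSIRT1 reads on a log axis (top) and overlap with H4K16ac, HCT116 pMCM2 and the K562 pSIRT1 lists (below, a square where present); red marks regions within 2 Mb of the longest peak-free stretch and blue the others. H4K16ac is present at 49 of the 50, and K562 early S pSIRT1 at 7.

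The 298 regions that carried pMCM2, H4K16ac, a K562 start site and unfractionated K562 pSIRT1 together had a median of 40 reads, against 34 over all regions without a start site. The one with the most reads, chr16:33864801-33868799, held 238 reads and lay 11600 bp from the nearest start site, within 2 Mb of the stretch of its chromosome, with a pMCM2 peak of 2665 reads. The next, chr12:2829001-2830399, held 163 reads over 1400 bp and overlapped pMCM2 (754 reads), H4K16ac (11.6-fold) and K562 pSIRT1 in all 5 phases, with 2790 reads in G1. Its nearest HCT116 start site, of the depleted list, was 6000 bp away. The third, chr11:57009401-57013199, held 144 reads and lay 3000 bp from a start site. Regions with none of the 4 features included chr2:33141201-33141799 with 203 reads over 600 bp, chr6:79735201-79735999 with 89 reads and chr13:36829601-36834199 with 86 reads. The first of these still met K562 pMCM2 in all 5 phases and K562 pSIRT1 in early S and G2. The chromosome 13 region met K562 pSIRT1 in late S. Beyond 100 kb from every start site, the region with the most reads after those of chromosomes 10 and 1 was chrX:61727801-61731199, with 85 reads and a gap of 565400 bp. It lay 45.7 kb from the stretch of its chromosome.

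For comparison, the 3 regions in all 4 lists with the most reads were chr11:1010201-1027999 with 2497 reads, chr17:47511601-47552399 with 2447 and chr19:42406001-42442999 with 2443. They were 17800, 40800 and 37000 bp wide, so none of the regions without a start site was as wide as any of them. All 3 overlapped pMCM2, H4K16ac and K562 pSIRT1 in all 5 phases, and the pMCM2 peak of the first held 15851 reads.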

How the data were processed

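Peak lists of 21 of the 23 samples were used, and 2 controls of sheared genomic DNA were not used. Per the submitters' processing notes, the build was hg19 and MACS and SICER were used; for the aligner, versions and thresholds, what was used is not given in the sources. Files without headers had their units read from the values. The whole numbers that the authors deposited in 18 lists were taken as read counts without scaling. For K562 pSIRT1 in middle S and in G2, the deposited value is a decimal score. The H4K16ac table looks like MACS output, and its deposited columns are a score, the fold enrichment, −log10 p-values and −log10 q-values. Its fold was printed and its score ranked its peaks. All per-peak values are the authors' own. Total sequencing depth is unknown.

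Chromosomes 1 to 22 and X were used. Ends of HCT116 pSIRT1 regions, deposited 1 bp short of a 200 bp grid, were raised to it for overlaps, gaps and widths and printed as deposited. An overlap was at least 1 bp. Shares have exact Clopper-Pearson 95% intervals. With 1 library per group nothing was tested. Named regions were the 5 with the most reads, the 5 widest, the 3 with the most reads at least 100 kb from every start site, with all 4 and with none of the 4 features (pMCM2, H4K16ac, K562 start site, unfractionated K562 pSIRT1), and 3 from all 4 lists. The members and lists were chosen with earlier results of these data known. Genes, sequence and gene lists were not analysed here, since no hg19 genome was used. Overlap and gap code was tested on simulated data. Python 3.11.15, numpy 2.4.6, pandas 2.3.3, scipy 1.17.1 and matplotlib 3.10.9 were used.

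Alternatives were an overlap of 50% of the shorter region, a gap under 1 kb, the middle 200 bp, the higher 50% of each kind of list and each nascent-strand list left out. Leaving out chromosome X, and leaving out regions within 2 Mb of the longest peak-free stretch, were chosen after seeing the data.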

Additional observations from a re-analysis of the deposited data

How the results depend on the processing

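None of the 4 differences in share between regions in all 4 lists and regions without a start site reversed under any alternative. The number of regions without a start site was 38894 with the higher-read 50% of each nascent-strand list, 3679 with the higher-read 50% of pSIRT1 regions and 35245 without the depleted list. In the order pMCM2, H4K16ac, K562 start site and unfractionated K562 pSIRT1, the differences were 34.2, 20.9, 33.3 and 36.3 points. Where a nascent-strand list was left out, the comparison was with regions in all of the remaining lists. Without the wild-type rescue list the differences were 32.3, 19.5, 30.4 and 33.7. Without the T530A rescue they were 31.6, 19.3, 29.8 and 33.3, and without the aphidicolin list 31.4, 19.3, 27.6 and 34.4. With an overlap of 50% of the shorter region they were 32.9, 22.3, 31.6 and 34.7, in the middle 200 bp 15.3, 20.1, 26.6 and 22.4, and with the higher-scoring 50% of the other list 35.4, 34.6, 32.1 and 31.5. Without the depleted list pMCM2, H4K16ac and K562 pSIRT1 gave 25.7, 14.3 and 26.0, and with the higher-read pSIRT1 regions 27.7, 4.05 and 27.1. With start sites counted at gaps under 1 kb, pMCM2, K562 start sites and K562 pSIRT1 gave 32.8, 31.6 and 35.4. With the higher-read start sites the K562 values were 21.4 and 41.7, and with other peaks at gaps under 1 kb H4K16ac gave 19.8. The cause was not tested. Differences not given here stayed within the interval of the main value. No paired analysis was possible because each group has 1 library and the shared number 1 pairs nothing.

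Depth and replicate spread are unknown, so a missing peak is not shown to be missing binding or missing initiation. Intervals cover counting only.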
